A study of Mus musculus with 4 samples.

Results

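The oligodendrocyte lineage was followed on 4 arrays through 33 genes, chosen by name and with earlier results of these data known. They were 6 genes grouped as precursor genes and 27 grouped as myelin genes. Of the 6, Pdgfra and Cspg4 mark precursors within the lineage, while Gpr17, Olig1, Olig2 and Nkx2-2 are also expressed later in it. The group is thus not one of the precursor stage alone. Each of the 33 had exactly 1 row with a single gene symbol in the deposited table, out of 19938 genes with such a row. The arrays measured brain RNA of ICR mice. The group titled ketamine (2 mice) had received intraperitoneal ketamine at 30 mg/kg each day, and the group titled saline (2 mice) normal saline. According to the methods the injections began at 1 month of age and went on for 3 months. Mice of both treatments were then tested in a water maze before they were killed and the prefrontal cortex was dissected. The source field of the labels names the opposite treatment for every array, so the groups are called here by title and all directions would turn with the source field. The labels give female mice and the methods male mice. Ketamine blocks the NMDA type of glutamate receptor, and the study asked what prolonged treatment does to learning, memory and gene expression in the cortex.

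Oligodendrocytes wrap the axons of the central nervous system in myelin, a stack of membrane rich in cholesterol and galactolipids. They arise from dividing precursor cells that carry the growth factor receptor encoded by Pdgfra and the proteoglycan encoded by Cspg4. When precursors leave the cell cycle these genes are switched off, a short intermediate stage expresses genes such as Gpr17, Bcas1 and Enpp6, and Sox10 and Myrf then drive the genes of myelin itself. Myelin is more abundant in white matter, brainstem and the cerebellar core than in the upper layers of the cortex.

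Values are log2 expression levels made by RMA (background correction, normalization between arrays and 1 value per gene row), so a difference of 1 is a factor of 2. The 33 genes had signal in both groups. All 33 genes lay above the 95th percentile of 1035 olfactory receptor rows, taken as a level of little signal, on each of the 4 arrays. Below it lay 5712 and 5408 of all 19938 genes on arrays 1 and 2 titled ketamine. On arrays 1 and 2 titled saline there were 5293 and 5540, so that most genes pass this level. Passing it does not by itself show a cell type. The label of prefrontal cortex did not hold for the arrays titled ketamine. Of 10 measured genes of forebrain neurons, 9 were lower there, with a summed log2 level of 57.7 and 56.1 on the arrays titled ketamine against 82.4 and 83.3 on those titled saline, and 2 of them read below the olfactory receptor percentile on each array titled ketamine. All 13 genes of cerebellar neurons were higher, with sums of 127.0 and 124.6 on the arrays titled ketamine against 80.4 and 71.8 with the saline title. For the arrays titled saline these lists do not settle the label. Of the 10 forebrain genes 0 read below the olfactory receptor percentile on either array titled saline. Only 0 and 1 of the 13 cerebellar genes read below it on arrays 1 and 2 titled saline. The cerebellar gene Gabra6 read 6.73 on array 1 and 3.28 on array 2 there. Of 10 measured genes of cholinergic and monoamine neurons, 1 read below that percentile on each. Whether treatment or dissected region goes with a difference below cannot be told apart.

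Against that background few of the lineage genes passed the test between the groups. Of 33 genes, 2 were higher on the arrays titled ketamine and 2 lower at an adjusted p of 0.05 in limma, while 23.2% of all genes tested were higher and 9.92% lower. Of all calls 70.1% were thus higher, against 50.8% after quantile normalization and 48.9% after centring, and the 4 calls among the 33 stood in both. The higher ones were Klk6, a serine protease of mature oligodendrocytes, and Ugt8a, the enzyme that adds galactose to ceramide. Pdgfra and Gpr17, both of the precursor group, were the lower ones. In tissue RNA of this kind, fewer cells of a type and less RNA per cell cannot be told apart.

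**Figure D1:**
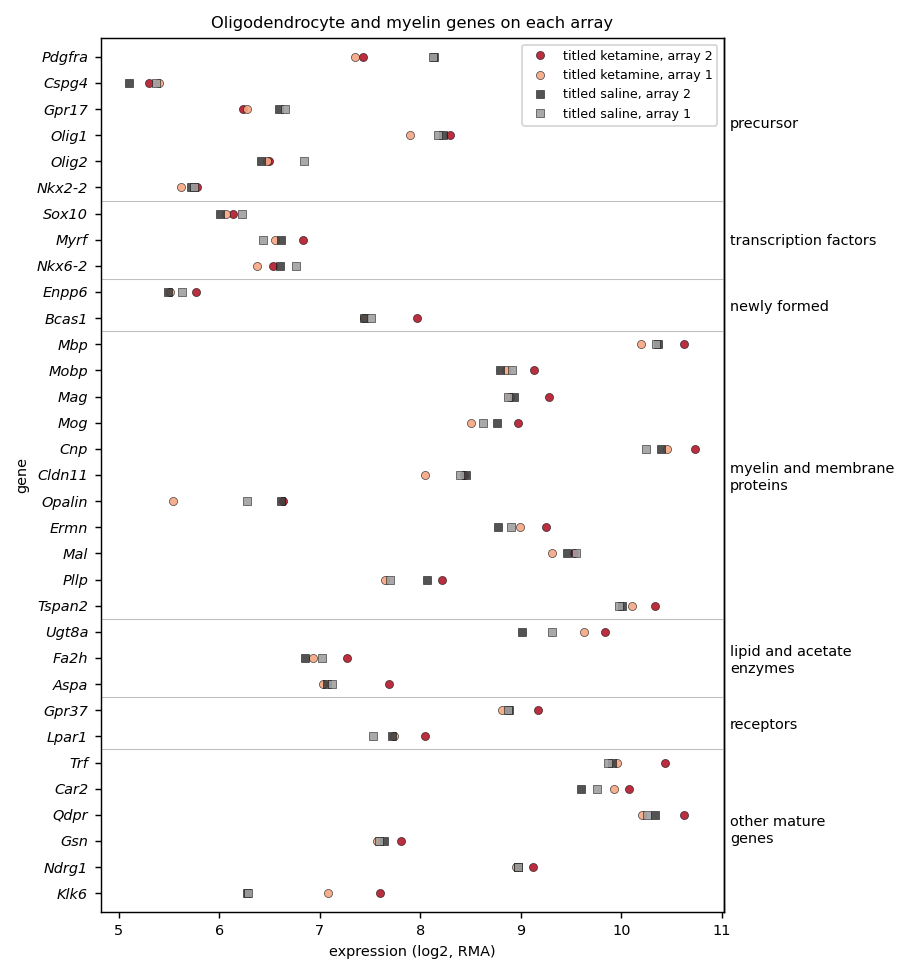
Log2 expression (x axis) of the 33 oligodendrocyte lineage genes (y axis), grouped by stage and role, on each array. Circles are the arrays titled ketamine and squares those titled saline. Klk6 and Ugt8a lie to the right and Pdgfra and Gpr17 to the left on both arrays titled ketamine, and titled ketamine array 2 is the highest of the 4 for 23 of the 27 myelin genes.

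The precursor genes come first in the lineage, and Pdgfra had the lowest difference of the 33. Pdgfra, the receptor through which platelet-derived growth factor keeps precursors dividing, had log2 levels of 7.35 and 7.43 with the ketamine title, against 8.13 and 8.14 with the saline title. The groups were well apart, and the arrays within each were nearly alike. The log2 difference of Pdgfra was -0.74 (standard error 0.105, adjusted p = 0.00226), a ratio of 0.597. Gpr17, a receptor that is switched on as precursors begin to differentiate and off again before myelin is made, had 6.28 and 6.24 with the ketamine title, against 6.66 and 6.60 with the saline title. These groups did not overlap either, and the difference was -0.37 (standard error 0.105, adjusted p = 0.0333).

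The other 4 precursor genes did not pass, and their groups overlapped. Cspg4, which encodes the NG2 proteoglycan, had 5.40 and 5.30 with the ketamine title, against 5.37 and 5.10 with the saline title, a difference of 0.12 with a 95% interval of -0.18 to 0.42. Whether Cspg4 and Pdgfra, which both mark precursors within the lineage, differed from each other in this was not tested. Whether cells outside the lineage carried part of the values of either gene was not tested. Olig1 and Olig2 encode transcription factors that are expressed through the whole lineage. Olig1 had 7.90 and 8.30 with the ketamine title, against 8.18 and 8.23 with the saline title, a difference of -0.10. Olig2 had 6.48 and 6.50 with the ketamine title, against 6.84 and 6.41 with the saline title, a difference of -0.14. Each had 1 array apart from the other 3, array 1 titled ketamine on the low side for Olig1 and array 1 titled saline on the high side for Olig2. Nkx2-2, a homeobox factor of early differentiation, had 5.62 and 5.78 with the ketamine title, against 5.75 and 5.72 with the saline title, a difference of -0.04 (95% interval -0.30 to 0.23).

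Over the 6 precursor genes the median difference was -0.12, against 0.14 over the 27 myelin genes and 0.13 over all 19938 genes. The myelin median thus lay next to that of all genes. After centring of each array on its median it was 0.0032, and that of the precursor genes was -0.26. Without titled ketamine array 2 the myelin median was -0.04 and without titled ketamine array 1 it was 0.32, so that its sign rests on array 2. The precursor median was -0.05 without titled ketamine array 1, -0.23 without titled ketamine array 2, -0.08 without titled saline array 1 and -0.22 without titled saline array 2. No test of the lists against other genes was made.

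**Figure D2:**
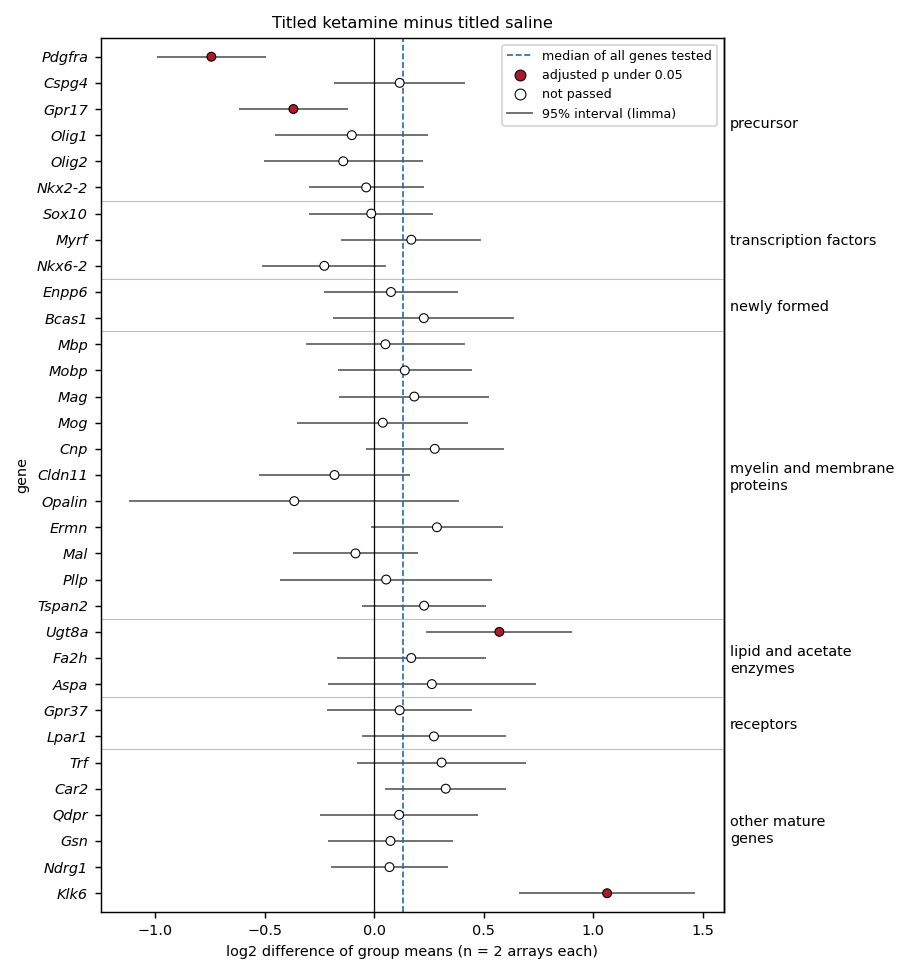
Log2 difference of group means, titled ketamine minus titled saline (x axis), for each gene (y axis), with the 95% interval from limma. Filled points passed an adjusted p of 0.05, and the dashed line is the median difference of all genes tested, 0.13. Klk6 at 1.06 and Ugt8a at 0.57 have intervals above 0, and Pdgfra at -0.74 and Gpr17 at -0.37 have intervals below 0. The interval of Car2, 0.05 to 0.60, also lies above 0, but Car2 did not pass (adjusted p = 0.0710 in limma). The intervals are not adjusted for the number of genes tested.

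Klk6 had the largest difference of the 33. It had 7.08 and 7.60 with the ketamine title, against 6.28 and 6.27 with the saline title. Both arrays titled ketamine were higher than either titled saline, and they differed from each other by 0.51. The difference was 1.06 (standard error 0.171, adjusted p = 0.00385), a ratio of 2.09. It was 0.81 without titled ketamine array 2 and 1.32 without titled ketamine array 1. Klk6 encodes a secreted protease (kallikrein 6) that is known from mature oligodendrocytes of spinal cord and brainstem.

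Ugt8a makes galactosylceramide, the typical glycolipid of myelin. It had 9.63 and 9.83 with the ketamine title, against 9.31 and 9.01 with the saline title, with no overlap. The difference was 0.57 (standard error 0.141, adjusted p = 0.0207). Fa2h, which hydroxylates the fatty acids of the same lipids, and Aspa, which frees acetate from N-acetylaspartate for lipid synthesis, had differences of 0.17 and 0.26 with intervals of -0.17 to 0.51 and -0.21 to 0.74. Without any 1 array, the calls of Klk6 and Gpr17 were lost (adjusted p from 0.0503 to 0.128 and from 0.0749 to 0.157). Those of Pdgfra and Ugt8a were lost without either array titled ketamine, where limma passed 0 of all 19938 genes (5473 without array 1 and 5949 without array 2 at an unadjusted p under 0.05), and that of Ugt8a also without titled saline array 2.

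None of the 11 genes of myelin and membrane proteins passed, with differences from -0.37 for Opalin to 0.29 for Ermn. Mbp, which holds the inner faces of the membrane together, had a difference of 0.05 (95% interval -0.31 to 0.41). Mog, a surface protein of the outermost layer, was at 0.04, and both Mbp and Mog were below 0 after quantile normalization or centring. Mag, an adhesion protein next to the axon, was at 0.18. Cnp, Ermn and Tspan2 had both arrays titled ketamine above both titled saline without passing the test. The same was seen for Lpar1, a receptor for lysophosphatidic acid, for Trf, the iron carrier transferrin, and for Car2, a carbonic anhydrase. Car2, at 0.33 (adjusted p = 0.0710), passed with limma's trend option (adjusted p = 0.0185) and when only rows reaching the median level were tested (adjusted p = 0.0358). With Klk6 and Ugt8a this made 8 of 27 myelin genes, against 48.4% of all genes. For 1 of the 27, Nkx6-2, and for 2 of the 6 precursor genes both arrays titled ketamine lay below, against 21.8% of all genes.

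Sox10 and Myrf, the transcription factors that turn on myelin genes, had differences of -0.01 and 0.17, and neither passed. Nkx6-2, a homeobox factor of differentiating oligodendrocytes, was at -0.23 (95% interval -0.51 to 0.06). The 2 genes of newly formed oligodendrocytes, Enpp6 and Bcas1, were at 0.08 and 0.23.

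For the 3 genes with the largest passed differences and for Opalin, whose arrays titled ketamine were farthest apart, the sequence around the listed start is given as the promoter region these results concern. The windows run from 250 bases before to 50 bases after the start, 5′ to 3′ on the strand of the gene, from RefSeq on GRCm38.p6, and windows of 23 of the 33 genes were in the promoter table used here. Capitals mark ACAAAG or its reverse complement CTTTGT, a core recognised by SOX family factors such as Sox10.

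Klk6, upstream start (chr7:43824294-43824593, plus strand): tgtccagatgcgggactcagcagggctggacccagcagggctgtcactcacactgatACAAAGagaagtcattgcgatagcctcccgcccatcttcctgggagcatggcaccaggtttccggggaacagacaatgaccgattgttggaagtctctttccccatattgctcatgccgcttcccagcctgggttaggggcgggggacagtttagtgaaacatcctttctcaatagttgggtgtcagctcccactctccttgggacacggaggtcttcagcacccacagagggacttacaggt
Klk6, downstream start (chr7:43825200-43825499, plus strand): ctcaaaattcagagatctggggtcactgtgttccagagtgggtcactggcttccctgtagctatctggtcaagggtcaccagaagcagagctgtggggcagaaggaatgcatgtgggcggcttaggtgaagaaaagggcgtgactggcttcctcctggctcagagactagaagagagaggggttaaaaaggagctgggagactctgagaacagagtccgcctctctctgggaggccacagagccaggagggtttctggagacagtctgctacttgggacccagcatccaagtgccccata
Ugt8a (chr3:125938603-125938902, minus strand): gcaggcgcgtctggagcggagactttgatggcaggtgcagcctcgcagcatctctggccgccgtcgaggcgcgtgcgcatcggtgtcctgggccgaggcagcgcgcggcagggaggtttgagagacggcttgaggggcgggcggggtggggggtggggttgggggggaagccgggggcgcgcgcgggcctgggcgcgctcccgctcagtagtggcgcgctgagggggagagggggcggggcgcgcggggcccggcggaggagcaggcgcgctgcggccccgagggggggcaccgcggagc
Pdgfra (chr5:75152001-75152300, plus strand): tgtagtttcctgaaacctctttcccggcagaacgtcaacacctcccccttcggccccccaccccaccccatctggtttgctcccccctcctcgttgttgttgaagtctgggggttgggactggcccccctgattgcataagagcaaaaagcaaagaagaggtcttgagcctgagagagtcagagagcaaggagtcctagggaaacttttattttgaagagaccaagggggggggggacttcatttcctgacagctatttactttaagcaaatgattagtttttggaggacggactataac
Opalin (chr19:41077064-41077363, minus strand): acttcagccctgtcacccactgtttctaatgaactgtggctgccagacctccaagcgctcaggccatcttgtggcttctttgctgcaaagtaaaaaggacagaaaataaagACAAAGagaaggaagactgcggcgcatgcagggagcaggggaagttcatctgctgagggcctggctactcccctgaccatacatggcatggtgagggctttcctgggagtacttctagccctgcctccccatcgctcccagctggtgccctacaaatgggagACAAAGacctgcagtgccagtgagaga

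Opalin held the core at 2 places and Klk6 at 1 place, in the window of its upstream start, while the windows of Ugt8a and Pdgfra held none. Of 31 windows of members 9 had a match, from 7 genes, against 18.7% of 32851 windows in the table. A match is a string of letters and not a shown binding site, and the absence of one says only that these letters are not in the window.

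The clearest regularity lay inside the group titled ketamine. All 27 myelin genes read higher on array 2 than on array 1, where 48.7% of all genes did (51.8% of the genes at or above the median level). Of the 6 precursor genes 4 read higher. The median difference of array 2 minus array 1 was 0.31 over the myelin genes and 0.04 over the precursor genes, against 0.00 over all genes. With 1 array on each side there is no test, and the values describe these arrays. The genes were also chosen with earlier results of these data known, so their counts beside the shares of all genes test nothing.

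Past 1.3-fold were 11 of the 27 myelin genes and 1 of the 6 precursor genes, all higher on array 2, where 3.16% of all genes (2.98% of those at or above the median level) were that much higher and 2.63% that much lower. The precursor gene was Olig1, at 0.40. Olig1 was thus past that fold as 11 myelin genes were, while Olig2 read 6.50 on array 2 and 6.48 on array 1. Pdgfra, at 0.07, Cspg4, at -0.09, Gpr17, at -0.04, and Nkx2-2, at 0.16, stayed within that fold.

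**Figure D3:**
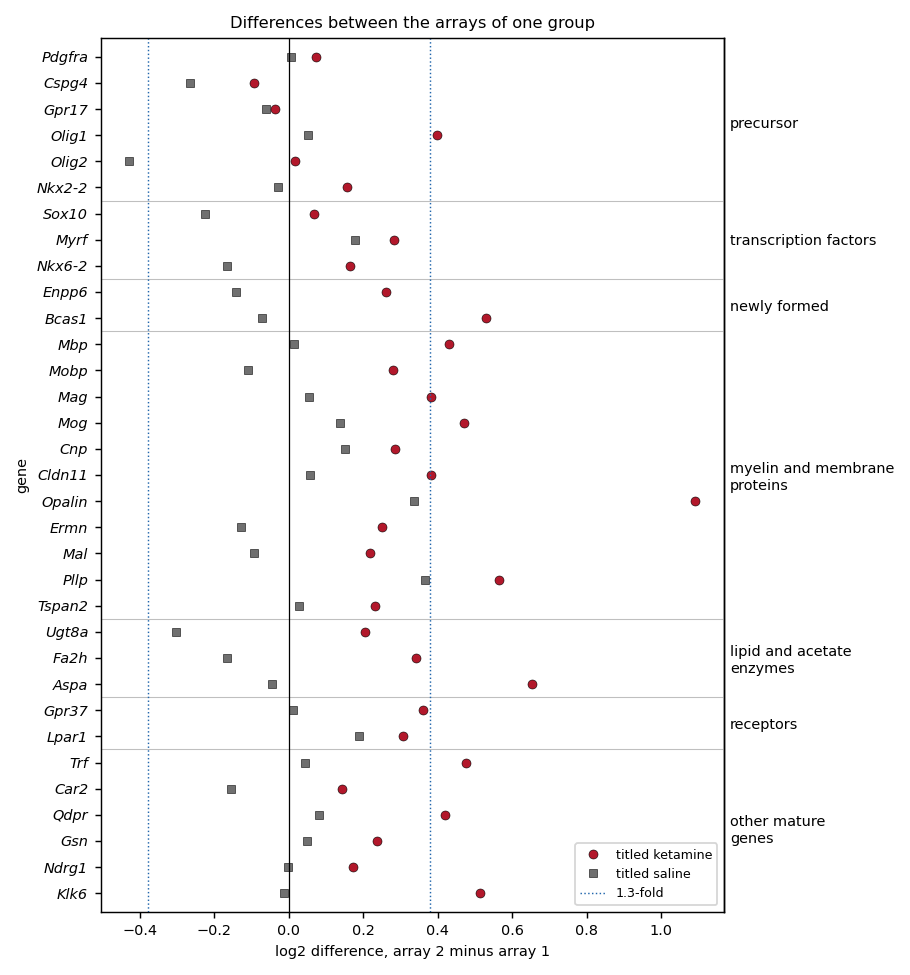
Log2 difference of array 2 minus array 1 (x axis) for each gene (y axis), as circles for the arrays titled ketamine and squares for those titled saline. Dotted lines mark 1.3-fold. Every myelin gene lies above 0 on the arrays titled ketamine, from 0.07 for Sox10 to 1.09 for Opalin, while the squares lie on both sides of 0.

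Among the membrane proteins, Opalin, a glycoprotein of mature oligodendrocytes, read 6.63 on array 2 and 5.54 on array 1 titled ketamine, and 6.62 and 6.28 on arrays 2 and 1 titled saline. Array 1 titled ketamine was the lowest, and both arrays numbered 2 lay close together. The difference of 1.09 between the arrays titled ketamine is a ratio of 2.13. Pllp, the proteolipid plasmolipin, read 8.22 and 7.65 on arrays 2 and 1 titled ketamine, against 8.06 and 7.70 on arrays 2 and 1 titled saline. Here the arrays titled saline were also apart, by 0.36, beside 0.56 between those titled ketamine. Mog read 8.97 and 8.50 on arrays 2 and 1 titled ketamine and 8.77 and 8.63 on arrays 2 and 1 titled saline. The arrays titled saline lay between those titled ketamine. Mbp had the same order, with 10.62 and 10.19 on arrays 2 and 1 titled ketamine against 10.36 and 10.35 on arrays 2 and 1 titled saline.

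Mag and Cldn11, a tight junction protein between the turns of myelin, were just past 1.3-fold, at 0.38 each. Mag read 9.28 and 8.89 on arrays 2 and 1 titled ketamine, against 8.93 and 8.87 on arrays 2 and 1 titled saline, with array 2 titled ketamine the one apart. Cldn11 read 8.43 and 8.05 on arrays 2 and 1 titled ketamine, against 8.45 and 8.39 on arrays 2 and 1 titled saline, with array 1 titled ketamine the one apart. Just inside 1.3-fold was Gpr37, a receptor of maturing oligodendrocytes, at 0.36. The other 5 genes of this group, Mobp, Cnp, Ermn, Mal and Tspan2, differed by 0.22 to 0.29.

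Aspa had the second largest difference, with 7.68 on array 2 and 7.03 on array 1 titled ketamine, against 7.07 and 7.12 on arrays 2 and 1 titled saline. Only array 2 titled ketamine stood apart. Bcas1, which marks oligodendrocytes that are beginning to myelinate, read 7.97 and 7.44 on arrays 2 and 1 titled ketamine, against 7.44 and 7.51 on arrays 2 and 1 titled saline. It had the same shape, with 3 arrays together and 1 above.

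Trf, the iron carrier, read 10.43 on array 2 and 9.95 on array 1 titled ketamine, against 9.91 and 9.86 on arrays 2 and 1 titled saline. Qdpr, which regenerates tetrahydrobiopterin, read 10.62 and 10.20 on arrays 2 and 1 titled ketamine, against 10.34 and 10.26 on arrays 2 and 1 titled saline. In both genes array 2 titled ketamine was above the other 3. Klk6 differed by 0.51 between the arrays titled ketamine and by -0.01 between those titled saline. Gsn, the actin-severing protein gelsolin, Ndrg1 and Car2 differed by 0.24, 0.17 and 0.14. The 16 myelin genes within 1.3-fold lay between 0.07 for Sox10 and 0.36 for Gpr37, with Fa2h at 0.34, Lpar1 at 0.31, Myrf at 0.28, Enpp6 at 0.26, Ugt8a at 0.21 and Nkx6-2 at 0.16 among them.

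Array 2 titled ketamine was the highest of the 4 arrays for 23 of the 27 myelin genes and for 2 of the 6 precursor genes, against 28.1% of all genes. The 4 myelin genes for which it was not were Sox10, Nkx6-2, Cldn11 and Mal. Array 1 titled ketamine was the lowest of the 4 for 13 of the 27 and for 3 of the 6 precursor genes. Among all 19938 genes it was the lowest for 3779. The median of the myelin genes was 8.97 on array 2 and 8.50 on array 1 titled ketamine, against 8.77 and 8.63 on arrays 2 and 1 titled saline. On every array this median was the value of Mog. Taken gene by gene, the median of array 2 minus array 1 was 0.31 with the ketamine title and 0.01 with the saline title.

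Between the 2 arrays titled saline no such order was present. Of the 27 myelin genes 14 read higher on array 2, and of the 6 precursor genes 2, where 50.5% of all genes did. The medians of array 2 minus array 1 were 0.01 and -0.05. Past 1.3-fold was 1 gene, Olig2, lower by 0.43 on array 2, where 5.8% of all genes were that much higher and 2.6% that much lower.

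Genes listed for the same lineage that were not among the 33 were read in the same way, by stage. These lists were also chosen with earlier results of these data known, so their counts test nothing. Not all of their genes are confined to the lineage. Of 25 measured genes of mature oligodendrocytes, 21 read higher on array 2 than on array 1 titled ketamine, with a median of 0.29, against 12 of 25 and -0.03 between the arrays titled saline. The largest differences were those of Il33, an alarmin cytokine held in the nucleus of oligodendrocytes, at 0.95, the fatty acid elongase gene Elovl7 at 0.62 and Pex5l at 0.59. Of 13 other precursor genes 5 read higher on array 2, with a median of -0.04, and of 9 other genes of newly formed oligodendrocytes 4, with a median of 0.00. Between the groups 7 of the 25 mature genes were higher and none was lower, with a median of 0.31, where 23.2% of all genes were higher, 9.92% lower and the median was 0.13. Hopx at 1.86 and Septin4 at 1.39 led these, and Elovl7 was at 0.61 with an adjusted p of 0.0536. On array 2 minus array 1 titled ketamine Hopx was at -0.21 and Septin4 at -0.0047, apart from the median of their list. Whether oligodendrocytes or other cells carried the differences of Hopx and Septin4 was not tested. Markers of other glia and of choroid plexus differed between the groups as well. Of 12 astrocyte genes 5 were higher and 1 lower (median 0.20), with summed log2 levels of 116.4 and 116.9 with the ketamine title, against 113.3 and 111.9 with the saline title. Of 12 microglia genes none was higher and 11 were lower (median -0.79), with sums of 75.8 and 77.9 with the ketamine title, against 85.2 and 85.04 with the saline title. Of 9 choroid plexus genes 8 were higher and none lower (median 0.76), with sums of 62.8 and 64.9 with the ketamine title, against 56.6 and 57.02 with the saline title. Their part in the differences of the oligodendrocyte genes was not tested. Of the 13 other precursor genes 3 were higher and 3 lower, with a median of -0.16, and of the 9 newly formed genes 3 were higher and 1 lower, to be read against the same shares of all genes. Among the 13, the 3 genes with the largest differences were Megf11 at 1.82, the proteoglycan gene Vcan at 0.84 and the phosphatase gene Ptprz1 at 0.78, all of them higher, and astrocytes express Ptprz1 as well. Among the 9 they were Cnksr3 at 2.999, Tmem163 at 1.48 and Tcf7l2, which neurons of the thalamus also express, at -1.82.

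**Figure D4:**
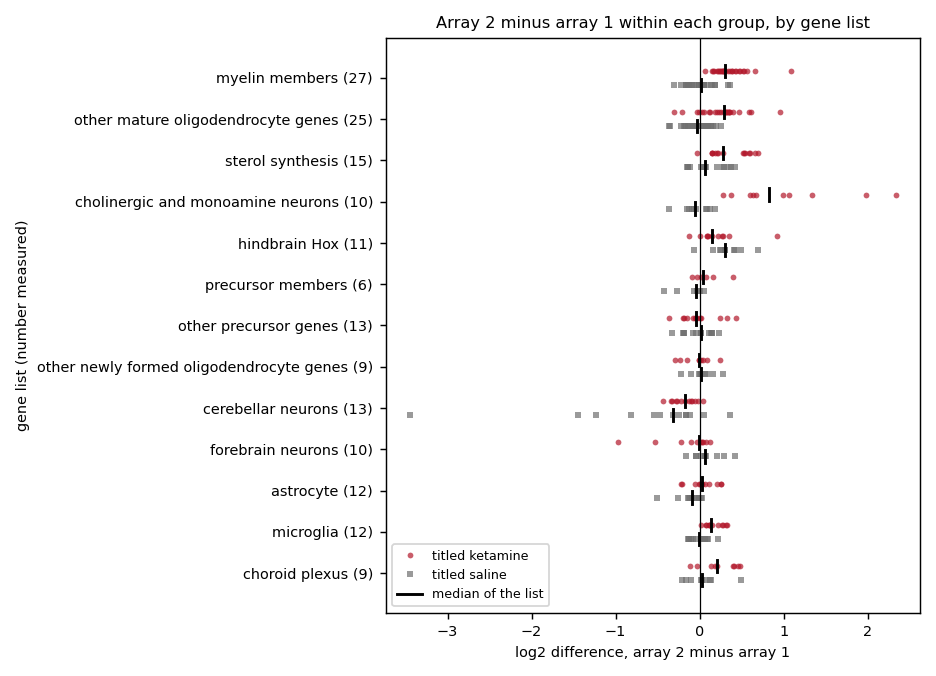
Log2 difference of array 2 minus array 1 (x axis) for the genes of 13 lists (y axis, with the number measured), as circles for the arrays titled ketamine and squares for those titled saline, and a bar at each median. The bar of the myelin genes is at 0.31 and that of the other mature oligodendrocyte genes at 0.29 for the arrays titled ketamine, and the cholinergic and monoamine genes lie farthest to the right.

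Markers of other cell types differed between the arrays titled ketamine too. All 10 measured genes of cholinergic and monoamine neurons read higher on array 2 than on array 1, with a median of 0.83, and their summed log2 level was 60.7 and 50.5 on arrays 2 and 1 titled ketamine, against 59.0 and 59.4 on arrays 2 and 1 titled saline. Tph2, the serotonin-synthesizing enzyme of the brain, differed most, by 2.34. Like the other lists, this one was chosen with earlier results of these data known, so its count describes these arrays and tests nothing. Of 11 Hox genes of the hindbrain 10 read higher on array 2 by a median of 0.15, but 10 also did between the arrays titled saline, by 0.31. Below the olfactory receptor percentile were 6 and 5 of the 11 on arrays 1 and 2 titled ketamine, against 7 and 6 on arrays 1 and 2 titled saline, so that many of these differences are between rows of little signal. The 13 cerebellar genes were at -0.18 and the 10 forebrain genes at -0.01, against -0.31 and 0.06 between the arrays titled saline. Past 1.3-fold lower on array 2 were 6 of the 13 cerebellar genes with the saline title and 1 with the ketamine title. Microglia (12 of 12 higher on array 2, median 0.14) and choroid plexus (7 of 9, 0.20) read higher on array 2 as well, and astrocytes were at 8 of 12 and 0.03. The part of any of these in the myelin values was not tested.

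Schwann cells, which myelinate peripheral nerves, share several of the myelin genes. Of their 7 measured genes 1 was higher and 3 were lower between the groups, where 23.2% of all genes were higher and 9.92% lower. Scn7a was at -1.10, Drp2 at -0.88 and Egr2, which neurons also express, at -0.72. The summed log2 level was 33.03 and 33.89 with the ketamine title, against 35.6 and 35.02 with the saline title. Below the olfactory receptor percentile were 2 of the 7 on each array titled ketamine, against 2 and 3 on the arrays titled saline.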

How the data were processed

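Brain RNA was measured on 4 arrays of the Affymetrix Mouse Gene 1.0 ST type, 2 per group by title. The authors deposited log2 expression levels from RMA, a core-exon summary by Expression Console per the labels, while the series text names another Affymetrix program. Software version and genome build: not given in the sources used here. Because RMA equalises the arrays, a shift of most genes one way would be partly removed. Scanner files were not used here. All columns of sample values were used.

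Gene names came from the platform annotation, and all 33 members matched RefSeq by gene number. Rows with exactly 1 symbol (21789 of 35556) were tested, rows with several (1621) or none (12146) were not, and a gene with more than 1 row was represented by that with the highest mean. Listed genes missing from the annotation were not analysed here. The test was limma (version 3.58.1, R 4.3.3, eBayes with neither trend nor robust option) with Benjamini-Hochberg adjustment over these rows, checked on simulated data. An exact permutation of 2 arrays against 2 cannot go below 0.333, and the p-values reflect only the spread among these samples, whose number limits the precision. Arrays within a group were compared by difference, at 1.3-fold. The study used that fold between its treatment groups and not between arrays of 1 group.

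The members and lists were chosen with earlier results of these data known. Values on every array are given for members that passed or were past 1.3-fold between the arrays titled ketamine and for the precursor genes, and from each other list up to 3 genes with the largest difference in the contrast described. Alternatives covered normalization, moderation, dim rows, the row of a gene, the fold, a replicate block and each array left out.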

Additional observations from a re-analysis of the deposited data

How the results depend on the processing

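Over the 2 counts of called genes, limma with trend and robust options gave 5 higher genes in place of 2 (Car2, Cnp and Ermn were added), and trend alone or only rows at or above the median level gave 3, with Car2. Asking for 1.3-fold with non-overlapping groups gave 1 lower gene in place of 2, without Gpr17 just inside that fold. Leaving out 1 array gave 0 to 1 higher and 0 to 1 lower genes. Over all genes these fits passed 0 without either array titled ketamine, 4129 without titled saline array 1 and 3734 without array 2. The lone array in them is assumed to vary like the other group. With the replicate number as a block the same 4 genes were called (2 higher, 2 lower), and same-numbered arrays shared only a number (correlation of their deviations 0.034 over 21789 rows), while limma passed 7538 of all genes with it and 6609 without it. The median of the precursor genes was -0.25 after quantile normalization, -0.26 after centring and -0.26 over the 4 genes at or above the median level, against -0.12. With 1.5-fold in place of 1.3-fold, 2 genes (Opalin and Aspa) differed between the arrays titled ketamine in place of 12, and quantile normalization or centring left 11. Averaging all rows of a gene changed no value, since each member has 1 row. Differences of the 4 called genes kept their sign in every setting run. Differences that did not pass turned sign after quantile normalization for Cspg4 -0.020, Enpp6 -0.053, Mbp -0.021, Mog -0.079, Pllp -0.080, Gsn -0.067 and Ndrg1 -0.050, and after centring for Cspg4 -0.020, Enpp6 -0.060, Mbp -0.085, Mog -0.097, Pllp -0.082, Gpr37 -0.020, Qdpr -0.023, Gsn -0.062 and Ndrg1 -0.067. The median of all genes moved to 0.011 and -0.0054 there, against 0.13. With 1 array left out, the difference crossed 0 for the following genes, given with the lowest and highest value: Cspg4 -0.017 to 0.25, Olig1 -0.30 to 0.097, Olig2 -0.36 to 0.073, Nkx2-2 -0.11 to 0.041, Sox10 -0.13 to 0.098, Enpp6 -0.055 to 0.21, Bcas1 -0.039 to 0.49, Mbp -0.16 to 0.27, Mobp -4e-05 to 0.28, Mag -0.0080 to 0.37, Mog -0.20 to 0.27, Cldn11 -0.37 to 0.010, Opalin -0.91 to 0.18, Mal -0.20 to 0.024, Pllp -0.23 to 0.34, Fa2h -0.0021 to 0.34, Aspa -0.064 to 0.59, Gpr37 -0.065 to 0.30, Qdpr -0.096 to 0.32, Gsn -0.045 to 0.19 and Ndrg1 -0.017 to 0.16. In the quantile setting Nkx6-2 passed as lower at -0.37 (adjusted p = 0.0473 in limma). The number of arrays limits these values, and the cause of the sign changes was not tested.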

Other observations

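Oligodendrocytes make much of their cholesterol themselves, and genes of sterol synthesis were listed beside the myelin genes. Of 15 measured genes, 14 read higher on array 2 than on array 1 titled ketamine, against 48.7% of all genes, with a median of 0.28. Past 1.3-fold higher were 7 of the 15, against 3.16% of all genes. Fdft1, which makes squalene, read 9.42 on array 2 and 8.72 on array 1, against 9.68 and 9.66 on arrays 2 and 1 titled saline, so that array 1 titled ketamine was the low one. Cyp51 and Sqle, the sterol demethylase and squalene epoxidase, differed by 0.65 and 0.60. Between the arrays titled saline 11 of the 15 read higher on array 2, against 50.5% of all genes, with a median of 0.06. There 1 of the 15 was past 1.3-fold higher, against 5.8% of all genes. Between the groups 1 of the 15 passed, where 23.2% of all genes were higher and 9.92% lower. It was Ebp, a sterol isomerase, which was higher by 0.94 (adjusted p = 0.00102 in limma), and the median of the 15 was 5e-05. Neurons and astrocytes express these genes as well.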
